A study of Mus musculus with 8 samples.

Results

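CDGC6 is a pluripotent stem cell line that was derived from a nascent teratoma in the testis of a new-born mouse, and it was set against control embryonic stem (ES) cells across all genes. The comparison was defined by the sample titles and used 4 of the 8 libraries of the series, 2 of CDGC6 and 2 of control. CDGC6 carried 2 ter alleles of Dnd1 and the Oct4deltaPE-GFP reporter, a transgene that reads Oct4 regulatory sequence, on a 129Sv background and was used between passages 15 and 18. Control cells were of the E14tg2a line, wild type and of the 129/Ola strain (this line carries a known Hprt mutation), and were used between passages 10 and 12. All cells grew in DMEM with serum and LIF. The remaining libraries, 2 of the second teratoma-derived line CDGC1 (strain, genotype and passage as CDGC6) and 2 of E14tg2a cells with Dnd1 knocked down, were part of the model and are quoted only where they place a CDGC6 value. CDGC6 and the control are each 1 line, so derivation, strain, genotype, reporter and passage cannot be told apart, and p-values measure the spread between 2 libraries of a line that nothing in the labels says were separate cultures.

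Mouse pluripotency is usually described as a series of states. Naive cells resemble the epiblast of the blastocyst and are marked by factors such as Zfp42, Esrrb, Klf4 and Dppa3. Formative and primed cells resemble the epiblast after implantation and express Fgf5, Otx2 and Zic2, while Pou5f1, Sox2 and Nanog are shared by these states. ES cells in serum and LIF are known as a mixture in which the naive programme dominates and some cells carry early marks of the next state.

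Expression is given in FPKM, fragments per kilobase of transcript and per 1000000 mapped fragments, for the first and then the second library of a group. A difference is a log2 difference of FPKM + 1, CDGC6 minus control, with its standard error after ±, and it understates the change of genes of low FPKM. Adjusted p-values come from limma with Benjamini-Hochberg adjustment over all 11887 genes tested, and "rose" and "fell" are used for an adjusted p under 0.05. Symbols that any library's file joins into 1 entry are counted as 1 gene and written with a slash. A gene is called kept where the 95% interval of its log2 difference lies wholly between −1 and 1, a change of less than 2-fold in FPKM + 1. The width of the intervals in the files implies about 13100000 and 12800000 fragments behind the CDGC6 libraries and 18000000 and 12600000 behind control.

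Most of the transcriptome of CDGC6 lay close to that of the ES cells. Of 11887 genes, 9930 (83.5%) were kept within 2-fold, 2223 (18.7%) passed the test, and 1380 did both. The kept count depended on the amount added to FPKM, being 8691 with 0.1 and 11070 with 5 in place of 1. Those that passed split into 1008 higher (8.48%) and 1215 lower (10.2%) in CDGC6. At least 2-fold apart were 228 higher (1.92%) and 167 lower (1.4%). Another 1114 genes neither passed nor were kept, so for them the libraries show no direction and no likeness. Pearson's r across genes was 0.978 between the CDGC6 libraries, 0.985 between the control libraries and 0.951 to 0.959 between the lines, a description across genes that are not independent. The SD of log2 values between the libraries of a line was 0.35 in control and 0.421 in CDGC6. Fewer genes passed with a library left out: 426 and 494 without the first and the second control library, and 1447 and 1332 without the first and the second CDGC6 library. The counts with a library left out are given beside many of the gene lists for that reason. Several of the lists without them also lost calls when a control library was left out.

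**Figure D1:**
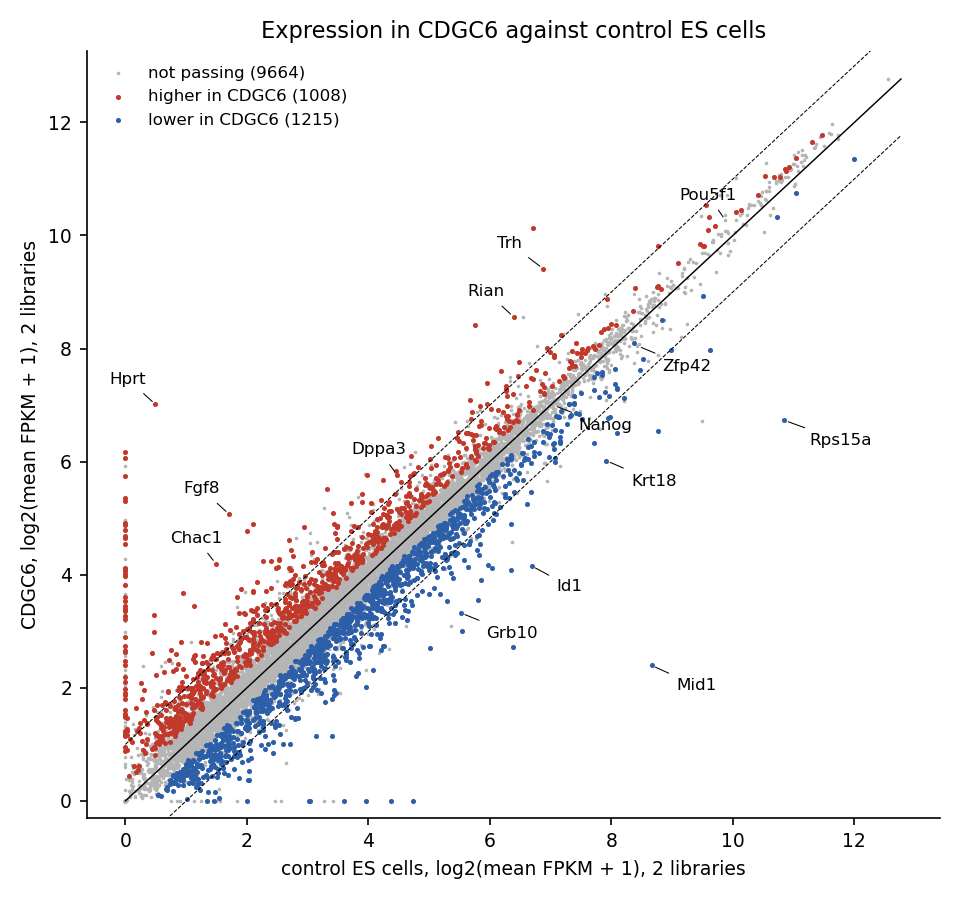
Mean expression of each tested gene, log2(FPKM + 1), in control ES cells (horizontal axis, 2 libraries) and CDGC6 (vertical axis, 2 libraries), with the line of equality solid and 2-fold dashed. The 1008 genes higher in CDGC6 are red and the 1215 lower are blue. Hprt lies far above the line and Mid1 and Rps15a far below it, while Pou5f1, Nanog and Zfp42 lie between the 2-fold lines.

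The labels were checked first. Dnd1, which encodes a germ cell RNA-binding protein, has no value of its own, since the files join it to the tRNA synthetase gene Hars, and Dnd1/Hars was at 60.1 and 63.4 FPKM in CDGC6 against 65.8 and 65 FPKM in control (log2 difference −0.08 ± 0.082, adjusted p = 0.51). Hprt, the purine salvage enzyme (chromosome X, 52988137 to 53021659, mm10), was at 123 and 133 FPKM in CDGC6 against 0.359 and 0.455 FPKM in control (log2 difference 6.52 ± 0.085, adjusted p = 1.07e-06). Both control values were near 0 and both CDGC6 values were high. Xist, the RNA of the inactive X chromosome, was at 0.302 and 0.395 FPKM in CDGC6 against 0.563 and 0.50 FPKM in control, too low to be tested. The Y-linked Eif2s3y was at 53 and 52.8 FPKM in CDGC6 against 42.2 and 39.3 FPKM in control (log2 difference 0.37 ± 0.081, adjusted p = 0.0297), and Uty at 9.42 and 7.98 FPKM in CDGC6 against 9.09 and 7.65 FPKM in control (log2 difference 0.05 ± 0.18, adjusted p = 0.864), so both lines carry Y-linked transcripts. Ddx3y also passed (log2 difference 0.59 ± 0.16, adjusted p = 0.0481). The calls for Eif2s3y and Ddx3y were lost in 5 and 10 of 17 alternative settings of the processing. Kdm5d, also Y-linked, was near 0 in both lines, with its values given under the other observations.

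CDGC6 kept the core pluripotency network. All 15 listed core genes were tested, 14 were kept within 2-fold (93.3% against 83.5% of all genes), and none fell. Pou5f1, the central POU factor, was at 1125 and 1339 FPKM in CDGC6 against 944 and 934 FPKM in control (log2 difference 0.39 ± 0.11, adjusted p = 0.061), which did not pass although both CDGC6 values lay above both control values. Sox2, its partner, was at 139 and 165 FPKM in CDGC6 against 158 and 167 FPKM in control (log2 difference −0.10 ± 0.14, adjusted p = 0.62). Nanog, the homeobox factor that stabilises self-renewal, was at 129 and 126 FPKM in CDGC6 against 134 and 128 FPKM in control, a log2 difference of −0.04 with a 95% interval −0.49 to 0.41. All 3 factors were kept within 2-fold of the ES cells.

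The other core members lay near control too. Sall4, a zinc finger partner of Pou5f1, was at 45.8 and 47 FPKM in CDGC6 against 56 and 53.3 FPKM in control. Utf1, a chromatin factor of pluripotent cells, was at 187 and 204 FPKM in CDGC6 against 195 and 209.8 FPKM in control. Lin28a, the RNA-binding protein that blocks let-7, was at 152 and 161 FPKM in CDGC6 against 127 and 114 FPKM in control. Log2 differences of Foxd3, Zfp281, L1td1, Epcam, Cdh1 and Dppa2 ran from −0.48 to 0.24, and none passed. Dppa4 had the widest spread, 85.6 and 159.8 FPKM in CDGC6 around the 109.9 and 112 FPKM of control. The 1 core gene that rose was Tdgf1, the NODAL co-receptor, at 464 and 469.9 FPKM in CDGC6 against 252 and 234 FPKM in control (log2 difference 0.94 ± 0.21, adjusted p = 0.0299), and that call was lost with any of the 4 libraries left out. With 1 of 15 higher and 0 lower, the list lay under the 8.48% and 10.2% of all genes on both sides.

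Most naive genes did not pass in either direction. Of 24 listed, 22 were tested, 2 rose (9.09% against 8.48% of all genes) and 3 fell (13.6% against 10.2%). A change within 2-fold held for 16 (72.7%), a smaller share than the 83.5% of all genes. The list median was −0.27 against −0.011 for all genes. Zfp42 (Rex1), a zinc finger gene that marks the naive state, was at 223 and 304 FPKM in CDGC6 against 335 and 352 FPKM in control (log2 difference −0.40 ± 0.17, adjusted p = 0.143). Esrrb, the orphan receptor of the naive network, was at 56.2 and 74.6 FPKM in CDGC6 against 78.6 and 82.9 FPKM in control (log2 difference −0.31). Tfcp2l1, a factor downstream of LIF and WNT signals, was at 26.6 and 28.5 FPKM in CDGC6 against 26.5 and 25.9 FPKM in control, the CDGC6 values being slightly the higher. Dppa5a/Ooep was the most abundant naive entry at 2024 and 2750.1 FPKM in CDGC6 against 2156 and 2418 FPKM in control, with overlapping groups. Prdm14, a repressor of FGF signalling and of de novo methylation, was at 3.43 and 5.39 FPKM in CDGC6 against 3.69 and 3.77 FPKM in control.

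Among Kruppel-like factors, Klf2 was at 52.1 and 68.1 FPKM in CDGC6 against 63.6 and 70.3 FPKM in control, Klf4 at 22.8 and 29.5 FPKM in CDGC6 against 35.1 and 37.3 FPKM in control and Klf5 at 46.9 and 38.3 FPKM in CDGC6 against 53 and 55.3 FPKM in control. Klf4 and Klf5 lay lower in both CDGC6 libraries but missed the threshold (adjusted p = 0.0538 and 0.080). Tcl1, Alpl, Ift52/Mybl2 and Fbxo15 were kept, with log2 differences from −0.18 to 0.34. Tdh, the threonine dehydrogenase on which mouse ES cells depend, was at 179 and 232 FPKM in CDGC6 against 234 and 245 FPKM in control and was kept. Tet2 and Pecam1 had log2 differences of −0.55 and −0.41 and did not pass. Tbx3 (3.25 and 5.56 against 8.73 and 7.88 FPKM) and the nuclear receptor Nr0b1 (21.1 and 37.8 against 44.5 and 47.2 FPKM) were neither kept nor past the test.

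The genes that fell were Gbx2, a homeobox target of LIF, at 9.08 and 12 FPKM in CDGC6 against 19.9 and 21.9 FPKM in control (log2 difference −0.93 ± 0.17, adjusted p = 0.0185), Nr5a2, an orphan receptor that binds the Pou5f1 locus, and Jam2, a junction protein. Nr5a2 was at 8.54 and 10.9 FPKM in CDGC6 against 16.5 and 16.9 FPKM in control (log2 difference −0.73 ± 0.17, adjusted p = 0.0364) and Jam2 at 12.9 and 12.7 FPKM in CDGC6 against 17.1 and 17.2 FPKM in control (log2 difference −0.40 ± 0.098, adjusted p = 0.0401). All 3 were lower in both CDGC6 libraries, but none kept its call with either control library left out, and with the replicate number as a block the count of lower naive genes was 1. Dppa3 (Stella), a maternal factor that protects DNA from active demethylation, went the other way at 49.9 and 56.7 FPKM in CDGC6 against 21.5 and 21 FPKM in control (log2 difference 1.29 ± 0.087, adjusted p = 0.000946), and kept its call under every alternative. The other naive gene that passed as higher was Sox15, at 14.1 and 15.6 FPKM in CDGC6. The files list Sox15 at 0 for control and for CDGC1, and at 11 and 0 FPKM in Dnd1-KD cells, so a 0 here can be a failed estimate and no fold is given. With a library left out, lower naive genes numbered 1 and 6 without the first and the second CDGC6 library and 0 and 0 without the first and the second control library.

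CDGC1 gave a contrast within the derived lines. All 22 tested naive genes were higher in CDGC6 than in CDGC1, where 24.1% of all genes were higher in CDGC6 and 23% lower. Zfp42 was at 0.022 and 0 FPKM in CDGC1, Esrrb at 0.211 and 0.14 FPKM and Dppa3 at 0.0572 and 0.0923 FPKM. The tests between the derived lines gave for Zfp42 a log2 difference 8.02 ± 0.17, adjusted p = 3.19e-06, and for Esrrb a log2 difference 5.81 ± 0.17, adjusted p = 9.20e-06. Of the 15 core genes 5 were higher in CDGC6 than in CDGC1 and 1 was lower.

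**Figure D2:**
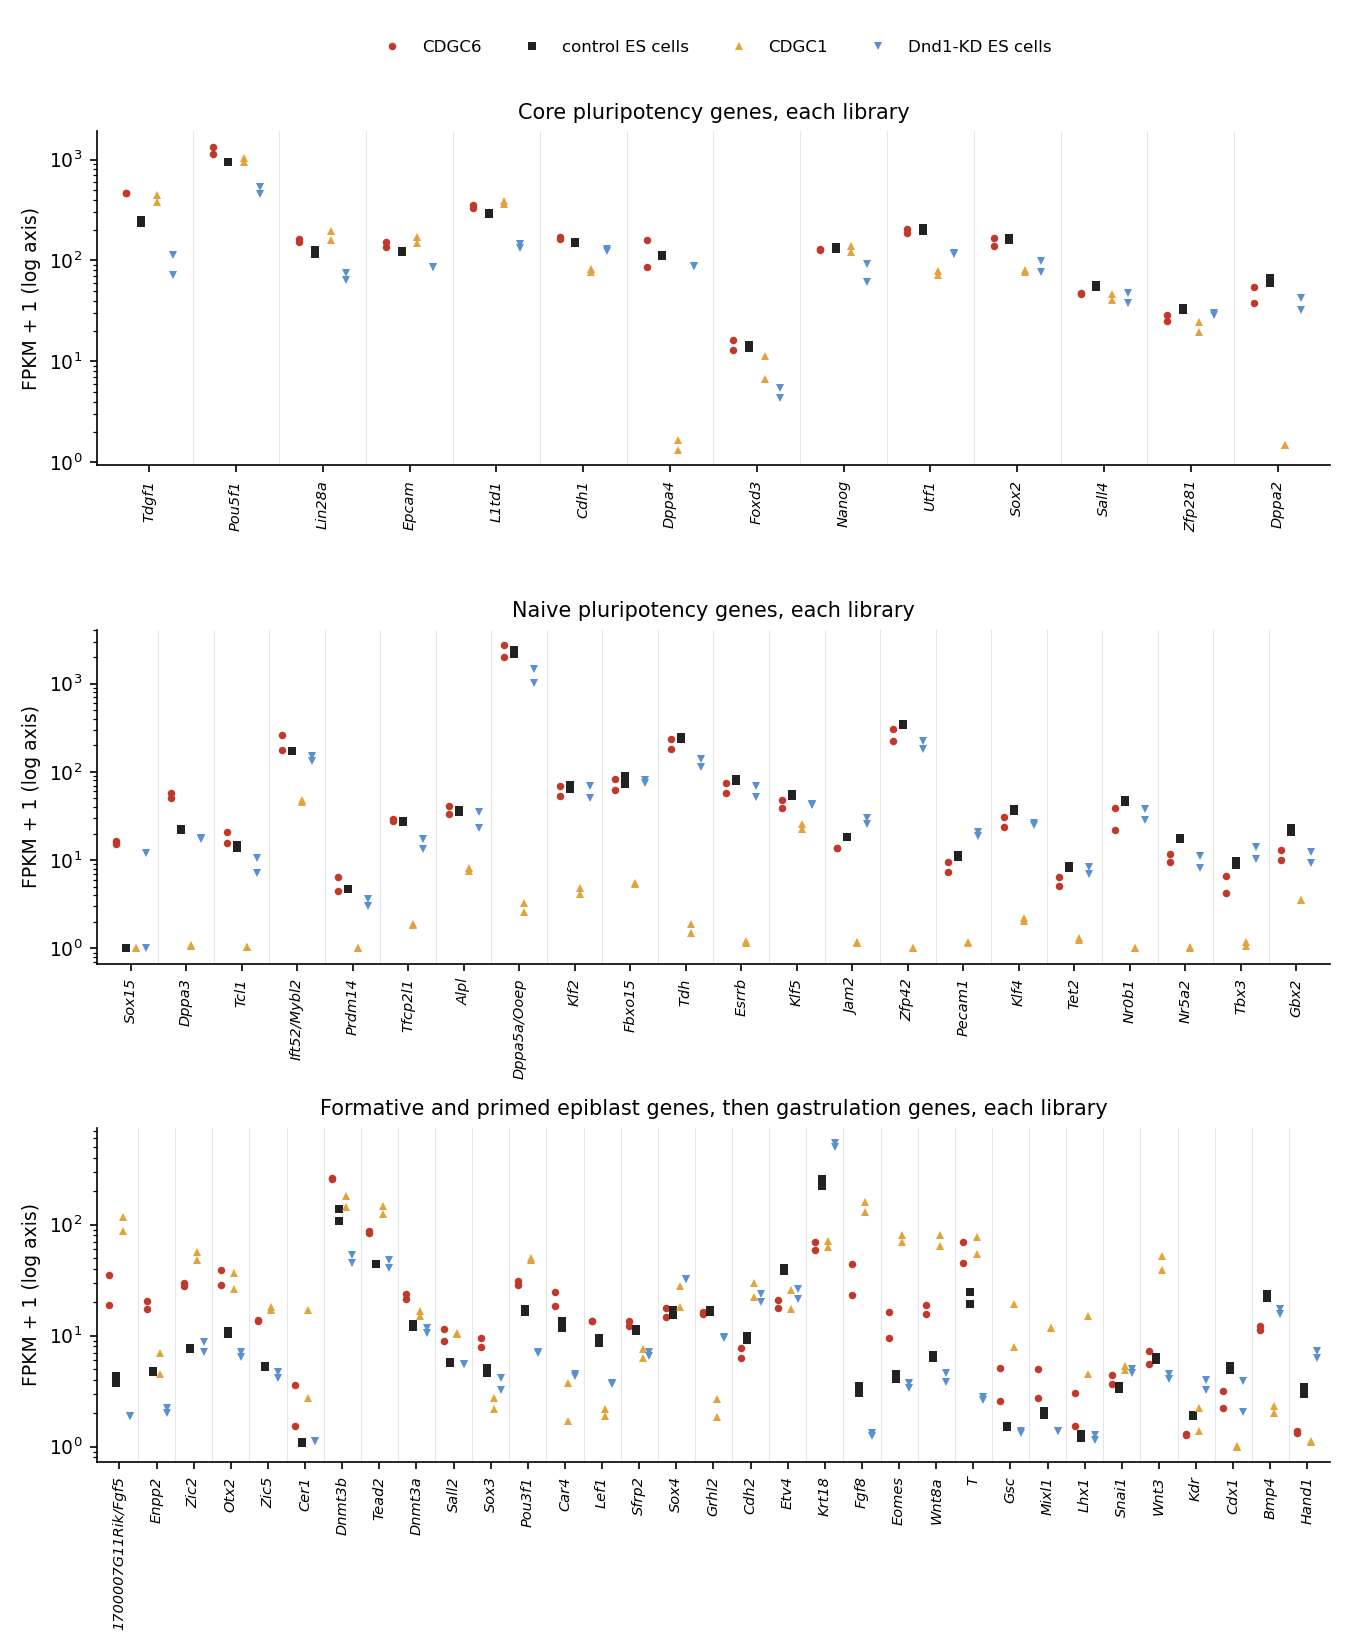
FPKM + 1 on a log axis for the tested core, naive, formative and gastrulation genes (1 core gene not reported here is left out), 1 point per library and 1 colour and shape per group, genes ordered by their log2 difference between CDGC6 and control within each list. In the naive panel CDGC1 points lie below those of CDGC6 for each gene, Sox15 and Dppa3 are higher and Gbx2, Nr5a2 and Jam2 lower in CDGC6 than in control; in the last panel Fgf5, Zic2, Otx2, Fgf8 and Eomes are higher in CDGC6 than in control.

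Many genes of the formative and primed epiblast rose. Of 21 listed, 20 were tested and 12 rose (against 8.48% of all genes), while 2 fell (10.0% against 10.2%). The list median was 0.83. Fgf5, an FGF ligand of the post-implantation epiblast that the files join to 1700007G11Rik, was at 34.3 and 18 FPKM in CDGC6 against 3.29 and 2.73 FPKM in control (log2 difference 2.70 ± 0.30, adjusted p = 0.00374). Zic2, a zinc finger factor of the post-implantation epiblast, was at 27 and 28.6 FPKM in CDGC6 against 6.65 and 6.69 FPKM in control (log2 difference 1.91 ± 0.13, adjusted p = 0.000946). Otx2, a homeobox factor that directs the exit from the naive state, was at 38.4 and 27.7 FPKM in CDGC6 against 10.1 and 9.3 FPKM in control (log2 difference 1.66 ± 0.20, adjusted p = 0.00555). Enpp2 (autotaxin), which makes lysophosphatidic acid, was at 19.6 and 16.3 FPKM in CDGC6 against 3.74 and 3.83 FPKM in control (log2 difference 1.98 ± 0.21, adjusted p = 0.00352). The POU factor Pou3f1 (Oct6) was at 30.1 and 27.6 FPKM in CDGC6 against 16.3 and 15.4 FPKM in control (log2 difference 0.82 ± 0.077, adjusted p = 0.0023). In each of these 5 genes both CDGC6 libraries lay above both control libraries. Otx2 and Pou3f1 were picked for naming after their values were seen.

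CDGC1 was not uniformly above or below CDGC6 in these genes. Fgf5 was at 86.2 and 117 FPKM and Zic2 at 47.3 and 56.1 FPKM in CDGC1, while Otx2 was at 25.5 and 35.8 FPKM and Enpp2 at 3.54 and 6.02 FPKM. Between the lines, Fgf5 had a log2 difference −1.97 ± 0.30, adjusted p = 0.00266, and Enpp2 a log2 difference 1.74 ± 0.21, adjusted p = 0.00117. So Fgf5 was lower and Enpp2 higher in CDGC6 than in CDGC1. Sox4, a SoxC factor, at 16.9 and 13.8 FPKM in CDGC6 against 14.2 and 16.1 FPKM in control and Grhl2, an epithelial factor, at 14.7 and 15.4 FPKM in CDGC6 against 15.9 and 15.4 FPKM in control did not pass and were kept. Krt18, a simple epithelial keratin in the same list, fell to 68.9 and 58.5 FPKM from 224 and 258 FPKM in control (log2 difference −1.90 ± 0.12, adjusted p = 0.000618). Higher members numbered 10 and 10 without the first and the second CDGC6 library and 9 and 8 without the first and the second control library, and all 6 members named here that passed (Fgf5, Zic2, Otx2, Enpp2, Pou3f1 and Krt18) kept their call under every alternative.

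Fgf8, T, Eomes and Wnt8a were the gastrulation genes that rose. Of 18 listed, 13 were tested, 4 rose (30.8% against 8.48% of all genes) and 2 fell (15.4%, near the 10.2% of all genes). Fgf8, the FGF ligand of the primitive streak, was at 43 and 22.1 FPKM in CDGC6 against 2.04 and 2.48 FPKM in control (log2 difference 3.29 ± 0.29, adjusted p = 0.0020). T (brachyury), the mesoderm T-box factor, was at 69.1 and 43.7 FPKM in CDGC6 against 18.1 and 23.7 FPKM in control (log2 difference 1.37 ± 0.26, adjusted p = 0.0207). Eomes, the T-box factor of mesendoderm, was at 15.4 and 8.47 FPKM in CDGC6 against 3.08 and 3.53 FPKM in control (log2 difference 1.53 ± 0.25, adjusted p = 0.0126). Wnt8a, a ligand of the streak, was at 17.9 and 14.7 FPKM in CDGC6 against 5.65 and 5.34 FPKM in control (log2 difference 1.41 ± 0.16, adjusted p = 0.00415). CDGC1 was higher still for Fgf8 (128 and 158 FPKM; log2 difference −2.16 ± 0.29, adjusted p = 0.00176, CDGC6 minus CDGC1) and overlapped CDGC6 for T (53.9 and 77.1 FPKM). Wnt3, which starts the streak in the embryo, was at 6.3 and 4.51 FPKM in CDGC6 against 5.01 and 5.46 FPKM in control and was kept. Hand1 (0.338 and 0.394 against 2.45 and 1.96 FPKM), a factor of extraembryonic mesoderm, and Bmp4 (10.3 and 11.2 against 20.7 and 22.5 FPKM) fell, and both were singled out after their values were seen. Higher members numbered 4 and 5 without the first and the second CDGC6 library and 2 and 2 without the first and the second control library.

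The 2 CDGC6 libraries stood apart from each other along the same genes. The first library was the higher one for 15 of 20 formative genes (median log2 ratio of first to second 0.19) and 10 of 13 gastrulation genes (0.41). The second was the higher one for 19 of 22 naive genes (−0.37). The same ratios in control were 0.042, −0.10 and −0.029, and over all genes the ratio was 0.027 in CDGC6. Fgf8 at 43 and 22.1 FPKM and Nr0b1 at 21.1 and 37.8 FPKM are examples of the opposite directions. In bulk RNA, fewer cells with a transcript and less transcript per cell cannot be told apart, which holds for every value given here.

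Several genes of the NODAL pathway rose and none fell. NODAL and ACTIVIN are TGF-beta ligands that act through SMAD2 and SMAD3 with FOXH1, and LEFTY proteins are their secreted inhibitors and targets. Of 21 genes tested, 7 rose (33.3% against 8.48% of all genes), while 10.2% of all genes fell. The median was 0.094, close to that of all genes, so the rises were in a minority of members. Lefty1/Lefty2, which share sequence and are counted as 1, were at 301 and 379 FPKM in CDGC6 against 50.8 and 55.1 FPKM in control (log2 difference 2.65 ± 0.26, adjusted p = 0.00263). Fst (follistatin), which binds ACTIVIN, was at 24.1 and 17.1 FPKM in CDGC6 against 5.08 and 6.08 FPKM in control (log2 difference 1.70 ± 0.24, adjusted p = 0.00811). Nodal itself was at 37.7 and 44.7 FPKM in CDGC6 against 39.5 and 37.3 FPKM in control (95% interval −0.32 to 0.51) and was kept, as was Tgif1, a SMAD2 repressor, at 93 and 92 FPKM in CDGC6 against 92.1 and 89.4 FPKM in control. Inhba, an ACTIVIN subunit, was low at 1.59 and 1.8 FPKM in CDGC6 against 0.394 and 0.44 FPKM in control and Foxh1 was at 53.3 and 40.8 FPKM in CDGC6 against 30.7 and 30.3 FPKM in control; both rose and were named after their values were seen. Higher members numbered 4 and 6 without the first and the second CDGC6 library and 3 and 4 without the first and the second control library.

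FGF genes moved both ways. Of 21 tested, 5 rose (23.8% against 8.48% of all genes) and 4 fell (19% against 10.2%). Beside Fgf8 and Fgf5, Fgf15, a ligand of neural progenitors and ES cells, was at 12 and 10.5 FPKM in CDGC6 against 2.69 and 2.47 FPKM in control (log2 difference 1.77 ± 0.14, adjusted p = 0.00139). Fgfbp1, a carrier of secreted FGF, fell to 19.9 and 21.5 FPKM from 54.7 and 54.1 FPKM (log2 difference −1.36 ± 0.091, adjusted p = 0.000946). Among targets of ERK signalling, Etv5 was at 153 and 148 FPKM in CDGC6 against 140.4 and 141 FPKM in control and Spry2 at 64.3 and 103 FPKM in CDGC6 against 65.1 and 67.8 FPKM in control, and both were kept. Higher members numbered 3 and 3 without the first and the second CDGC6 library and 3 and 3 without the first and the second control library, and lower members 2 and 1 without the first and the second CDGC6 library and 1 and 1 without the first and the second control library.

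Id1 and Id2 fell, and most other BMP genes did not. ID proteins are targets of BMP and SMAD1 that hold back basic helix-loop-helix factors in serum-grown ES cells. Of 17 genes tested, 4 fell (23.5% against 10.2% of all genes) and 1 rose (5.88% against 8.48%). Only 9 were kept within 2-fold (52.9% against 83.5% of all genes). Id1 was at 15.3 and 18.4 FPKM in CDGC6 against 108 and 96.6 FPKM in control (log2 difference −2.54 ± 0.41, adjusted p = 0.0123) and Id2 at 8.93 and 12.4 FPKM in CDGC6 against 58.9 and 51.4 FPKM in control (log2 difference −2.28 ± 0.30, adjusted p = 0.00687). Id3 was at 14.8 and 32.6 FPKM in CDGC6 against 54.5 and 52.3 FPKM in control (log2 difference −1.24 ± 0.43, adjusted p = 0.0924), lower in both libraries but with a wide spread and no call. Smad6, an inhibitory SMAD, was at 1.09 and 1.09 FPKM in CDGC6 against 3.28 and 2.96 FPKM in control (log2 difference −0.98 ± 0.26, adjusted p = 0.047), and Bmp4 fell as given above. Grem1, a secreted BMP antagonist, was low and higher in CDGC6 at 2.43 and 4.09 FPKM in CDGC6 against 0.198 and 0.192 FPKM in control (log2 difference 1.81 ± 0.23, adjusted p = 0.00638), while the receptor Bmpr1a was at 17 and 15.3 FPKM in CDGC6 against 16.4 and 15.5 FPKM in control and was kept. Id1 varied within CDGC1 too, from 79.4 to 29.9 FPKM. Lower members numbered 2 and 3 without the first and the second CDGC6 library and 1 and 2 without the first and the second control library.

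WNT and LIF genes were mostly kept (88.0% and 93.8% against 83.5% of all genes), and some YAP targets fell. Of 25 WNT genes 2 rose and 3 fell (8.0% and 12.0%, near the 8.48% and 10.2% of all genes). Ctnnb1 (beta-catenin) was at 219.6 and 213 FPKM in CDGC6 against 229 and 218 FPKM in control and Apc/Srp19 at 108 and 117 FPKM in CDGC6 against 97.1 and 111 FPKM in control, both kept. Lef1, a partner of beta-catenin, was at 12.6 and 12.5 FPKM in CDGC6 against 8.54 and 7.5 FPKM in control (log2 difference 0.59 ± 0.11, adjusted p = 0.0175), and the ligands Wnt7b and Wnt6 fell. Wnt7b was at 1.4 and 1.12 FPKM in CDGC6 against 5.09 and 4.61 FPKM in control (log2 difference −1.37 ± 0.18, adjusted p = 0.00675). In the LIF and STAT3 list 2 of 16 fell (12.5%, near the 10.2% of all genes) and 15 were kept. The receptor Lifr fell, at 5.3 and 5.03 FPKM in CDGC6 against 7.89 and 7.44 FPKM in control (log2 difference −0.49 ± 0.090, adjusted p = 0.0176). The adaptor Gab1 fell as well, at 46.7 and 49.4 FPKM in CDGC6 against 79.9 and 77 FPKM in control (log2 difference −0.69 ± 0.063, adjusted p = 0.00209). The target Pim1 was at 72.8 and 83.9 FPKM in CDGC6 against 75.9 and 75 FPKM in control. In the YAP and TEAD list 6 of 16 fell (37.5% against 10.2% of all genes) and Tead2 alone rose (6.25% against 8.48%). Tead2 was at 82.9 and 86.2 FPKM in CDGC6 against 43.2 and 43.2 FPKM in control (log2 difference 0.95 ± 0.11, adjusted p = 0.00455). The targets Cyr61 (49.5 and 36.3 against 75.5 and 90.6 FPKM) and Ctgf (32.9 and 33.5 against 57.5 and 58.3 FPKM) and the factor Tead1 (15.7 and 14.8 against 28.8 and 28.5 FPKM) fell, and Yap1 was kept at 50.9 and 49.5 FPKM in CDGC6 against 50.8 and 49.4 FPKM in control. Lower members of the YAP and TEAD list numbered 5 and 2 without the first and the second CDGC6 library and 1 and 1 without the first and the second control library.

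Most glycolysis genes rose. Glycolysis turns glucose to pyruvate in the cytosol, and its enzymes are targets of HIF and MYC factors. Of 22 genes tested, 13 rose (59.1% against 8.48% of all genes) and none fell (against 10.2%), with a median of 0.51. Slc16a3, the lactate exporter MCT4, was at 106 and 62 FPKM in CDGC6 against 35.7 and 33.4 FPKM in control (log2 difference 1.21 ± 0.24, adjusted p = 0.0211). Aldoc, an aldolase, was at 10.1 and 7.83 FPKM in CDGC6 against 3.02 and 2.79 FPKM in control (log2 difference 1.34 ± 0.26, adjusted p = 0.0195), and the phosphofructokinases were at 169.9 and 153 against 77.6 and 74.6 FPKM for Pfkl and 61.2 and 36.8 against 23 and 21.4 FPKM for Pfkp. Ldha (lactate dehydrogenase) and Pgk1 (phosphoglycerate kinase), named after their values were seen, were at 1519 and 1463 FPKM in CDGC6 against 776 and 729 FPKM in control (log2 difference 0.99 ± 0.097, adjusted p = 0.00257) and at 961 and 847 FPKM in CDGC6 against 449 and 421 FPKM in control (log2 difference 1.05 ± 0.082, adjusted p = 0.00139). Gapdh at 2597 and 2597 FPKM in CDGC6 against 2284 and 2325 FPKM in control, Pgam1 at 654 and 637 FPKM in CDGC6 against 618 and 523 FPKM in control and the glucose transporter Slc2a1 at 259 and 218 FPKM in CDGC6 against 239.5 and 232 FPKM in control did not pass and were kept. Higher members numbered 6 and 8 without the first and the second CDGC6 library and 4 and 3 without the first and the second control library. The first CDGC6 library was above the second in 19 of the 22.

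HIF targets outside glycolysis gave 4 rises (23.5% against 8.48% of all genes) and 1 fall (5.88% against 10.2%) among 17. Vegfa, the angiogenic ligand, was at 9.24 and 8.72 FPKM in CDGC6 against 2.82 and 2.91 FPKM in control (log2 difference 1.37 ± 0.17, adjusted p = 0.00571). Bnip3, a mitophagy receptor, was at 76.3 and 59.1 FPKM in CDGC6 against 26.8 and 23.2 FPKM in control (log2 difference 1.39 ± 0.19, adjusted p = 0.00695), and Egln3, a prolyl hydroxylase of HIF, was at 11.2 and 6.81 FPKM in CDGC6 against 2.78 and 2.54 FPKM in control (log2 difference 1.41 ± 0.24, adjusted p = 0.0137). Hif1a was kept at 33.3 and 31.1 FPKM in CDGC6 against 33 and 33.4 FPKM in control. Higher members numbered 4 and 8 without the first and the second CDGC6 library and 2 and 2 without the first and the second control library. For oxidative phosphorylation 7 of 75 genes rose (9.33%, near the 8.48% of all genes) and 0 fell (against 10.2%), with a median log2 difference of 0.16 against −0.011 for all genes, and 67 were kept. Ndufv3, a complex I subunit, was at 121 and 119 FPKM in CDGC6 against 72.3 and 65.9 FPKM in control (log2 difference 0.79 ± 0.091, adjusted p = 0.00455), and Atp5b of the ATP synthase was at 1045 and 1073 FPKM in CDGC6 against 964 and 982 FPKM in control. The second CDGC6 library was the higher one in 69 of these 75 genes, and the count of rises was 14 and 5 without the first and the second CDGC6 library and 1 and 1 without the first and the second control library.

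Serine and one-carbon enzymes included several that rose. These enzymes make serine and glycine and load one-carbon units on folate for purines and thymidylate, and several are ATF4 targets. Of 17 genes tested, 7 rose (41.2% against 8.48% of all genes) and none fell (against 10.2%). Psat1, the aminotransferase of serine synthesis, was at 172 and 215 FPKM in CDGC6 against 72.2 and 71.8 FPKM in control (log2 difference 1.40 ± 0.10, adjusted p = 0.00118), and Phgdh, the first enzyme of the path, at 95 and 104 FPKM in CDGC6 against 57.4 and 56.1 FPKM in control (log2 difference 0.80 ± 0.071, adjusted p = 0.00196). In mitochondria, Mthfd2 was at 67.1 and 85.6 FPKM in CDGC6 against 31.2 and 32.4 FPKM in control (log2 difference 1.23 ± 0.13, adjusted p = 0.00348), Mthfd1l at 57.6 and 58.8 FPKM in CDGC6 against 29.8 and 33.3 FPKM in control (log2 difference 0.86 ± 0.077, adjusted p = 0.00202) and Shmt2 at 63.1 and 68.3 FPKM in CDGC6 against 41.3 and 41.9 FPKM in control (log2 difference 0.65 ± 0.079, adjusted p = 0.00547). Phgdh and Shmt2 were named after their values were seen. Mat2a at 126 and 131 FPKM in CDGC6 against 163 and 152 FPKM in control did not pass. Higher members numbered 6 and 6 without the first and the second CDGC6 library and 4 and 5 without the first and the second control library. In the purine list 3 of 18 rose (16.7% against 8.48% of all genes) and 1 fell (5.56% against 10.2%). Hprt, as above, Adk (log2 difference 0.46 ± 0.11, adjusted p = 0.033) and Ada (log2 difference 0.35 ± 0.094, adjusted p = 0.0499) rose. Hprt was at 0.533 and 0.642 FPKM in Dnd1-KD cells and at 124 and 121 FPKM in CDGC1, so it was near 0 in both groups of E14tg2a cells. Pnp/Pnp2 fell (log2 difference −0.58 ± 0.13, adjusted p = 0.0302). The calls for Adk and Ada were lost in 5 and 10 of 17 alternatives. Impdh2 and Paics, enzymes of purine synthesis, were kept.

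Some genes of the integrated stress response rose, and Hspa5, an ER chaperone gene, fell. ATF4 is translated when eIF2-alpha is phosphorylated and turns on amino acid genes, whereas HSPA5 and its partners answer to unfolded protein in the endoplasmic reticulum. Of 20 genes tested, 6 rose (30.0% against 8.48% of all genes), 1 fell (5.0% against 10.2%) and 13 did not pass, among them the stress response genes Ddit3, Atf3, Atf5, Ppp1r15a, Nupr1 and Cebpb. Chac1, which degrades glutathione, was at 14.5 and 20.2 FPKM in CDGC6 against 1.61 and 2.0 FPKM in control (log2 difference 2.69 ± 0.26, adjusted p = 0.00235). Stc2, a secreted glycoprotein, was at 14.2 and 18.9 FPKM in CDGC6 against 4.37 and 5.06 FPKM in control (log2 difference 1.61 ± 0.21, adjusted p = 0.00686). Trib3, a pseudokinase that dampens ATF4, was at 12.7 and 17 FPKM in CDGC6 against 5.5 and 6.39 FPKM in control (log2 difference 1.18 ± 0.23, adjusted p = 0.0209), and Vldlr, a lipoprotein receptor, at 1.71 and 1.68 FPKM in CDGC6 against 0.201 and 0.268 FPKM in control (log2 difference 1.13 ± 0.11, adjusted p = 0.00257). Atf4/Mief1 was at 159.5 and 151 FPKM in CDGC6 against 74.5 and 77 FPKM in control (log2 difference 1.03 ± 0.074, adjusted p = 0.00112) and Asns, the asparagine synthetase, at 115 and 135 FPKM in CDGC6 against 76.2 and 77.6 FPKM in control (log2 difference 0.69 ± 0.087, adjusted p = 0.0061). The chaperone gene Hsp90b1 at 371 and 328 FPKM in CDGC6 against 391 and 430.0 FPKM in control did not pass, and Hspa5 (BiP) fell to 243 and 203 FPKM from 357 and 377 FPKM (log2 difference −0.72 ± 0.16, adjusted p = 0.0326). Atf4, Asns, Hspa5 and the 6 genes listed as not passing were named after their values were seen. Higher members numbered 6 and 5 without the first and the second CDGC6 library and 3 and 5 without the first and the second control library, and the fall of Hspa5 was lost with any of the 4 libraries left out.

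Promoters of 4 genes that rose and of the 1 that fell are shown, those in which a known stress element was found. RefSeq promoters (GRCm38.p6, 250 bases before to 50 after the start) were found for all 20 listed genes. The motif TGATGNAA, the form of amino acid response element that ATF4 dimers bind, was searched on both strands, and is in 3.97% of the 32851 promoters. It is in 4 of the 6 genes that rose (Chac1, Trib3, Asns and Vldlr), in none of the 1 that fell and in 3 of the 13 that did not pass (Atf3, Herpud1 and Nupr1). The ER stress element, CCAAT and CCACG 9 bases apart, is in 0.119% of promoters, in Hspa5, Hsp90b1 and Calr, and in 0 of the 6 that rose. Atf4 and Stc2, which rose, hold neither, and the ER genes Pdia4, Sdf2l1 and Dnajb9, which did not pass, lack the ER stress element. As only 1 gene fell, whether the motifs divide the list by direction cannot be judged. A match is a description of the letters and not a measured site. Capitals mark the motif, TGATGNAA or its reverse complement in the first 4 and the ER stress element in Hspa5, and each sequence runs 5′ to 3′ on its gene's strand. Of 2 entries for Vldlr, 1 is shown.
Chac1 (chr2:119350992-119351291, plus strand): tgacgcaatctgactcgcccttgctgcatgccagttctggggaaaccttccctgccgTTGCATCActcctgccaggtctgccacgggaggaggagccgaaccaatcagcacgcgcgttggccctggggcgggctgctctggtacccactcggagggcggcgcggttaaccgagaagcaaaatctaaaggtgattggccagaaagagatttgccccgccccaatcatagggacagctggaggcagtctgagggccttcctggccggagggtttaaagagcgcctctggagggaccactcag
Trib3 (chr2:152344011-152344310, minus strand): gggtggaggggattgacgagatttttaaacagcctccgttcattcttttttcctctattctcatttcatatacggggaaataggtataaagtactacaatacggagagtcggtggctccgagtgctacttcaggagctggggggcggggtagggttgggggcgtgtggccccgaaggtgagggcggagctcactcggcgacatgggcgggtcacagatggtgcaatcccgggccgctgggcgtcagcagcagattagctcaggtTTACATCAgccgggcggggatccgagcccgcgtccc
Asns (chr6:7693160-7693459, minus strand): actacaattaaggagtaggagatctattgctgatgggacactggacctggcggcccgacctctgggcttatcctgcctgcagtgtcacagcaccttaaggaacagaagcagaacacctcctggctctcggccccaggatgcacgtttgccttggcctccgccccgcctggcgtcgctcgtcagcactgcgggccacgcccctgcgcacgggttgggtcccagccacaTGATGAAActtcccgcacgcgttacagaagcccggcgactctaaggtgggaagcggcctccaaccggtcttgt
Vldlr (chr19:27216770-27217069, plus strand): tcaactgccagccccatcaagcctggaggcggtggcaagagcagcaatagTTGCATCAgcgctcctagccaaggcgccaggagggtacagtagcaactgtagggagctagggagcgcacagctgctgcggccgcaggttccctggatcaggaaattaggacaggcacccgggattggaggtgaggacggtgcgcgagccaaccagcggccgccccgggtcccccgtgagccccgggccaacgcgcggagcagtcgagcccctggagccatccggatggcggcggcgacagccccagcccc
Hspa5 (chr2:34771840-34772139, plus strand): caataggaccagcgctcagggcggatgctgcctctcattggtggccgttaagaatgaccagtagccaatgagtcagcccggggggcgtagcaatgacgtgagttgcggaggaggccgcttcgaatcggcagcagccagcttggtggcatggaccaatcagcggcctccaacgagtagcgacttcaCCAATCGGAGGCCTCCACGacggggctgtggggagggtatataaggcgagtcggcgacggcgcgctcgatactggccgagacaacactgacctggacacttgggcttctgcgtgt

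Many heat shock genes fell. HSF1 drives these chaperones, which refold cytosolic proteins. Of 15 genes tested, 8 fell (53.3% against 10.2% of all genes) and none rose (against 8.48%), with a median of −0.29. Hspa1a/Hspa1b, the inducible HSP70 pair that the files join, was at 7.54 and 6.51 FPKM in CDGC6 against 38.2 and 52.5 FPKM in control (log2 difference −2.52 ± 0.30, adjusted p = 0.00508). Dnd1-KD cells had 351 and 622 FPKM of this entry and CDGC1 2.87 and 4.18 FPKM. Hspb1 (HSP27) was at 237 and 267 FPKM in CDGC6 against 476 and 529 FPKM in control (log2 difference −0.99 ± 0.096, adjusted p = 0.00248), Hsph1 (HSP105) at 71.3 and 69.1 FPKM in CDGC6 against 108 and 114 FPKM in control (log2 difference −0.65 ± 0.13, adjusted p = 0.0233) and Cryab at 5.1 and 5.88 FPKM in CDGC6 against 12.9 and 11.5 FPKM in control (log2 difference −1.02 ± 0.21, adjusted p = 0.0241). Hspa8, the constitutive HSP70 and one of the most abundant transcripts, fell to 2670.1 and 2573 FPKM from 3970.0 and 4167 FPKM (log2 difference −0.63 ± 0.072, adjusted p = 0.00434), a change that stayed within 2-fold. Hsp90ab1 at 3094 and 3068 FPKM in CDGC6 against 2809 and 2975 FPKM in control and the mitochondrial chaperonin Hspd1 at 521 and 563 FPKM in CDGC6 against 598 and 581 FPKM in control did not pass. Lower members numbered 4 and 4 without the first and the second CDGC6 library and 3 and 3 without the first and the second control library, and Hspa1a/Hspa1b, Hspb1 and Hspa8 kept the call under every alternative.

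The inverted pair GAANNTTC, the core of a heat shock element, was searched in the promoters of the 11 listed heat shock genes with an entry. It is in 7.86% of all promoters, in 4 of the 6 such genes that fell (Hspa1a, Hspa1b, Hspb1 and Hsph1) and in 4 of the 5 that did not pass (Hspd1, Hspe1, Dnaja1 and Bag3). Hspa1a and Hspa1b have separate promoters and are counted separately here, but they share 1 joined entry and so 1 measured fall. The presence of the motif did not separate the falling from the other members. Sequences of 3 promoters of falling genes are shown with the motif in capitals, which reads the same on both strands as N is any base. Of 2 entries for Hsph1, 1 is shown.
Hspa1b (chr17:34959189-34959488, minus strand): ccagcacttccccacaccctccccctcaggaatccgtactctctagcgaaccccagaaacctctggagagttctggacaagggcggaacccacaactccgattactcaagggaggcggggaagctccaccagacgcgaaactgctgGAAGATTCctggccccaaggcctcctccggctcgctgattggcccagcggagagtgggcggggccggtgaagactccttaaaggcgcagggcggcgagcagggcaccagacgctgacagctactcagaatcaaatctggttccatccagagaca
Hspb1 (chr5:135887669-135887968, plus strand): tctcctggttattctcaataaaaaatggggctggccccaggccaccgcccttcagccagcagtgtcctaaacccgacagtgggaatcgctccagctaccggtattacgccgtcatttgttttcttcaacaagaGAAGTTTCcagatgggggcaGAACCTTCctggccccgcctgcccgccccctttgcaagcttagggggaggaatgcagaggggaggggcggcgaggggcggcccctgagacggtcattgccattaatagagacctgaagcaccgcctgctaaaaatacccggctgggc
Hsph1 (chr5:149636266-149636565, minus strand): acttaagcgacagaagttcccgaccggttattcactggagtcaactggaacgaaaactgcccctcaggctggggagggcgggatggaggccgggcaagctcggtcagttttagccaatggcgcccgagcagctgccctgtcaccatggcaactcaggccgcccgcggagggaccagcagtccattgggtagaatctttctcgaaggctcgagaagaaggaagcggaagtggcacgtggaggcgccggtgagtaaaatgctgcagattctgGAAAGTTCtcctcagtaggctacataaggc

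Many targets of p53 fell, and others were kept. p53 is the stress-activated factor that limits damaged cells, and MDM2 is both its target and its inhibitor. Of 26 genes tested, 14 fell (53.8% against 10.2% of all genes) and none rose (against 8.48%), with a median of −0.56. Trp53 itself was at 188 and 187 FPKM in CDGC6 against 219.5 and 212 FPKM in control (log2 difference −0.20 ± 0.061, adjusted p = 0.0677) and was kept. Perp, a membrane effector of apoptosis, was at 15.7 and 17.2 FPKM in CDGC6 against 66 and 62.6 FPKM in control (log2 difference −1.91 ± 0.16, adjusted p = 0.00186). Plk2, a polo-like kinase, was at 14.8 and 19.2 FPKM in CDGC6 against 59.4 and 63.5 FPKM in control (log2 difference −1.80 ± 0.23, adjusted p = 0.00651), and Mdm2 was at 34.7 and 39.4 FPKM in CDGC6 against 97.9 and 95.5 FPKM in control (log2 difference −1.36 ± 0.10, adjusted p = 0.00118). Eda2r, a death receptor relative, was at 10.3 and 8.12 FPKM in CDGC6 against 24.4 and 24 FPKM in control (log2 difference −1.31 ± 0.27, adjusted p = 0.0238), and Ccng1 and Pmaip1 (NOXA), named after their values were seen, were at 65 and 67.6 FPKM in CDGC6 against 133 and 133 FPKM in control and at 7.63 and 8.12 FPKM in CDGC6 against 18.9 and 19.8 FPKM in control. The count did not extend to all targets, since Cdkn1a (p21), also named after its values were seen, was at 24.8 and 28.2 FPKM in CDGC6 against 26.8 and 28.7 FPKM in control and Bax at 264 and 309.6 FPKM in CDGC6 against 312 and 332 FPKM in control, both kept. Lower members numbered 13 and 12 without the first and the second CDGC6 library and 7 and 7 without the first and the second control library, and Perp, Plk2, Mdm2 and Pmaip1 kept the call under every alternative.

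**Figure D3:**
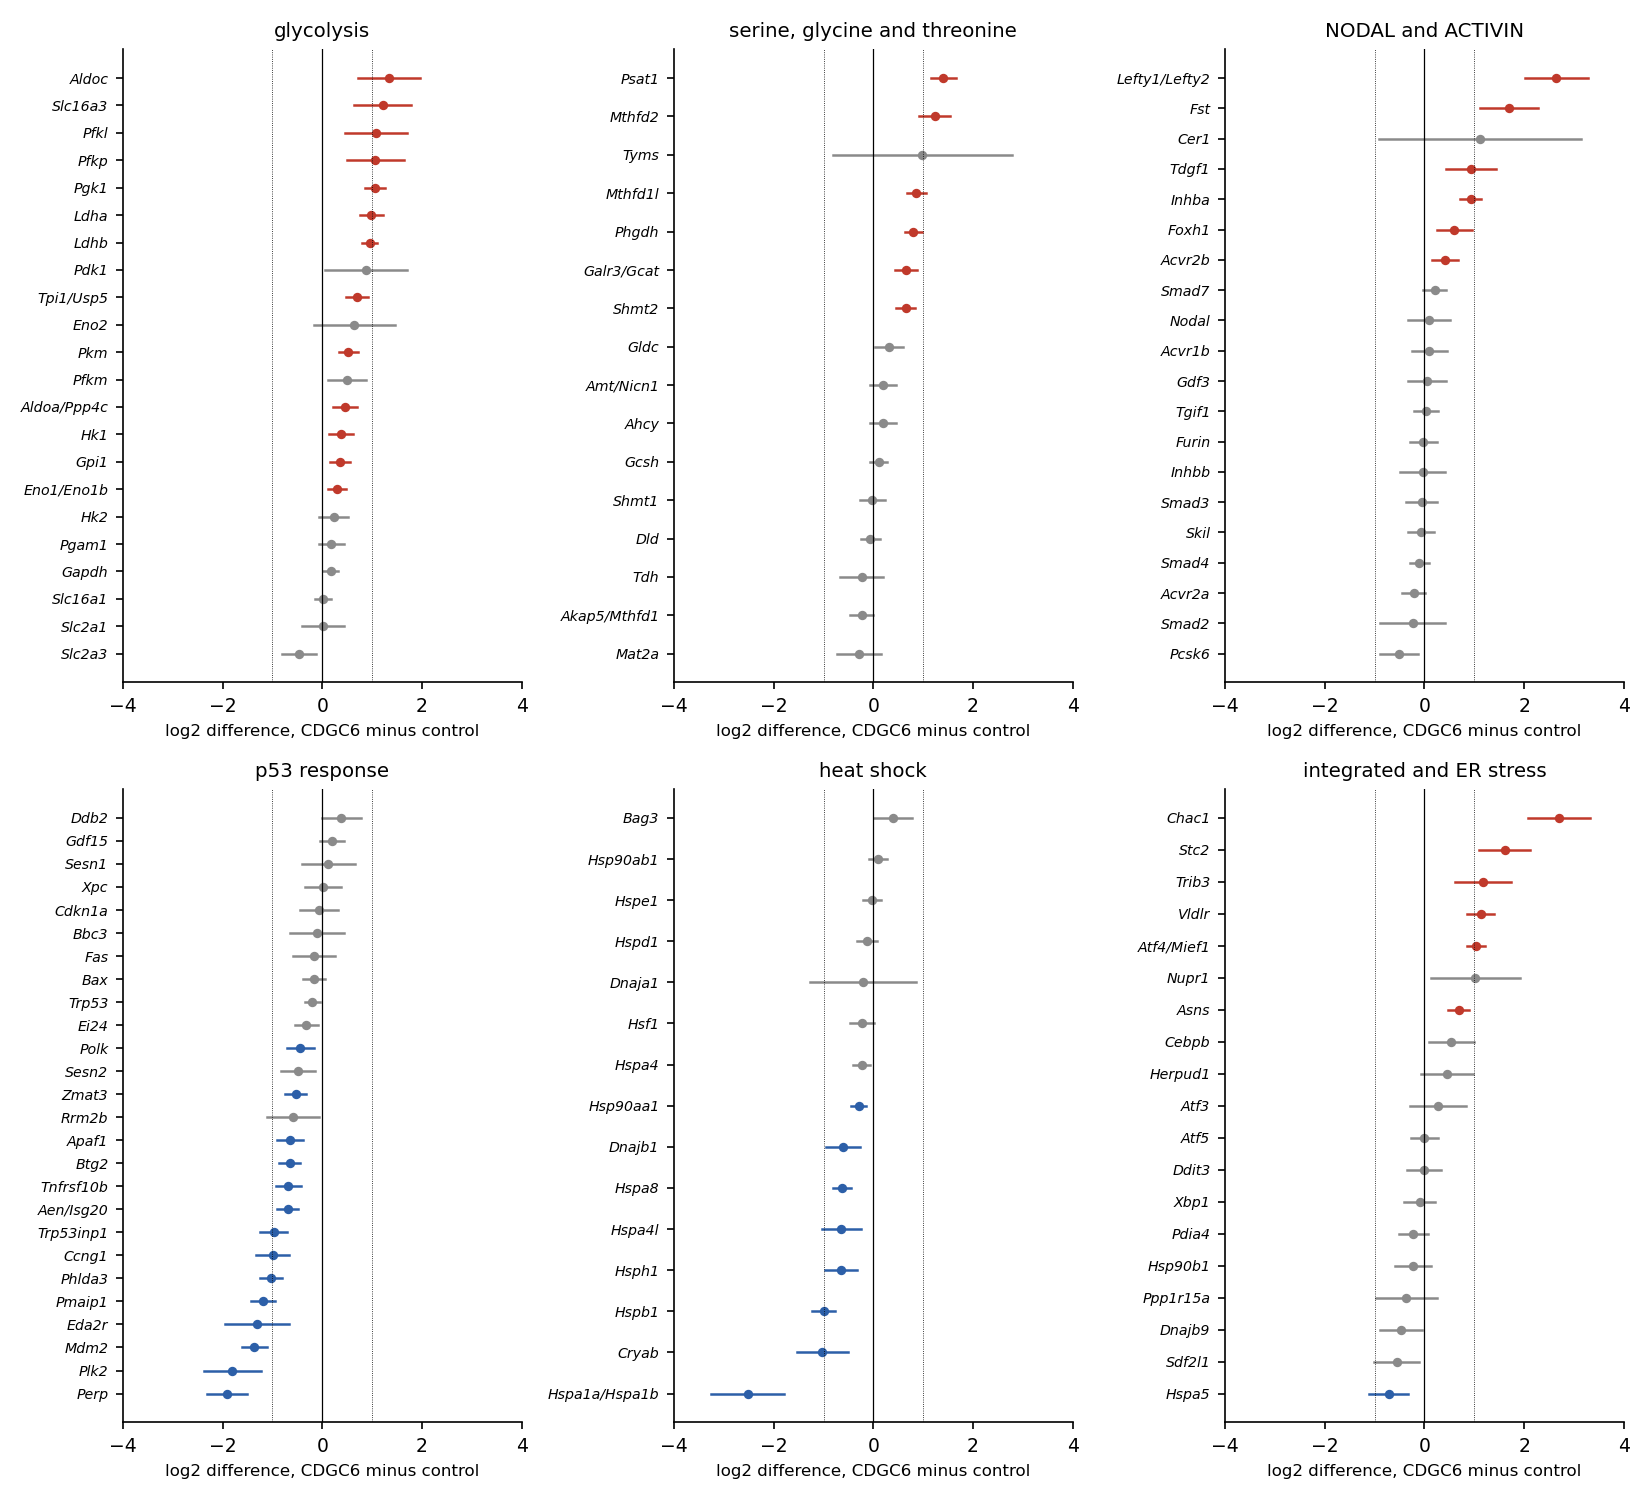
Log2 difference of FPKM + 1 between CDGC6 and control (points) with 95% intervals (bars) for tested members of 6 lists (some not reported here are left out), red where higher and blue where lower with an adjusted p under 0.05, grey otherwise, dotted lines at 2-fold. Red points are seen without blue ones in glycolysis, serine and one-carbon and NODAL genes, and blue without red in p53 and heat shock genes.

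Imprinted genes differed in both directions. Imprinted genes are read from 1 parental copy, and their dosage depends on methylation marks that are erased in primordial germ cells and set again in gametes. Of 23 tested genes expressed from the paternal copy, 12 rose (52.2% against 8.48% of all genes) and 4 fell (17.4% against 10.2%). Snhg14/Snrpn/Snurf, the Prader-Willi cluster transcript, was at 1776 and 463 FPKM in CDGC6 against 108 and 100.3 FPKM in control (log2 difference 3.11 ± 0.59, adjusted p = 0.0193), its CDGC6 libraries lying far from each other and both above control. Magel2 of the same cluster was at 6.06 and 4.73 FPKM in CDGC6 against 0.741 and 0.64 FPKM in control (log2 difference 1.91 ± 0.14, adjusted p = 0.00118). Hymai/Plagl1, a growth-restraining zinc finger gene, was at 4.94 and 5.39 FPKM in CDGC6 against 0.35 and 0.352 FPKM in control (log2 difference 2.19 ± 0.16, adjusted p = 0.00121), and Peg3 was at 46.8 and 28.6 FPKM in CDGC6 against 15.3 and 15.6 FPKM in control (log2 difference 1.19 ± 0.22, adjusted p = 0.0174). Nnat was at 26.9 and 22.4 FPKM in CDGC6 and at a listed 0 in control, so no fold is given. Igf2, the fetal growth factor, fell to 4.29 and 4.71 FPKM from 12.9 and 10.9 FPKM (log2 difference −1.23 ± 0.11, adjusted p = 0.00204), and Peg10 and Kcnq1ot1 fell as well (109 and 111 FPKM in CDGC6 against 265 and 239 FPKM in control for Peg10). Mest at 34.3 and 32.4 FPKM in CDGC6 against 32 and 29.2 FPKM in control did not pass. Peg3, Nnat, Peg10 and Kcnq1ot1 were named after their values were seen.

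Of 19 genes read from the maternal copy and tested, 8 fell (42.1% against 10.2% of all genes) and 3 rose (15.8% against 8.48%). Cdkn1c (p57), a cell cycle inhibitor, was at 4.31 and 6.71 FPKM in CDGC6 against 32.6 and 29.8 FPKM in control (log2 difference −2.33 ± 0.18, adjusted p = 0.00121). Grb10, an inhibitor of insulin and IGF receptors, was at 7.56 and 10.5 FPKM in CDGC6 against 45.1 and 45 FPKM in control (log2 difference −2.22 ± 0.15, adjusted p = 0.000946). Phlda2, which limits placental growth, was at 10.3 and 17.7 FPKM in CDGC6 against 56.5 and 57 FPKM in control (log2 difference −1.99 ± 0.23, adjusted p = 0.00466). All 3 kept the call under every alternative, and all 3 were lower again in CDGC1 (log2 difference 2.59 ± 0.15, adjusted p = 7.32e-05 for Grb10, CDGC6 minus CDGC1). In the Dlk1-Dio3 cluster of chromosome 12, the noncoding Rian rose to 363 and 389 FPKM from 88.4 and 77.4 FPKM (log2 difference 2.17 ± 0.17, adjusted p = 0.00139). Mirg of that cluster was at 51.6 and 41.2 FPKM in CDGC6 against 25.2 and 23.8 FPKM in control (log2 difference 0.89 ± 0.14, adjusted p = 0.0119). Meg3 was at 218 and 208 FPKM in CDGC6 against 101 and 96.7 FPKM in control and missed the threshold (log2 difference 1.10 ± 0.32, adjusted p = 0.0617). Its CDGC6 and its control libraries each lay close together, and the wider error is one pooled over the 4 groups of the model. CDGC1 had almost none of the cluster, with Rian at 0.75 and 1.49 FPKM, and the test between the derived lines gave a log2 difference 7.50 ± 0.17, adjusted p = 4.48e-06. H19 was at 5.6 and 5.6 FPKM in CDGC6 against 2.74 and 2.0 FPKM in control (log2 difference 0.98 ± 0.23, adjusted p = 0.0364), and with Mirg was named after its values were seen. For the paternal list higher members numbered 8 and 7 without the first and the second CDGC6 library and 4 and 4 without the first and the second control library. For the maternal list lower members numbered 6 and 4 without the first and the second CDGC6 library and 4 and 4 without the first and the second control library. With small RNA genes kept, Rian, Mirg and H19 were each joined to miRNA genes in 1 entry, and 0 of the 15 maternal genes then tested rose.

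**Figure D4:**
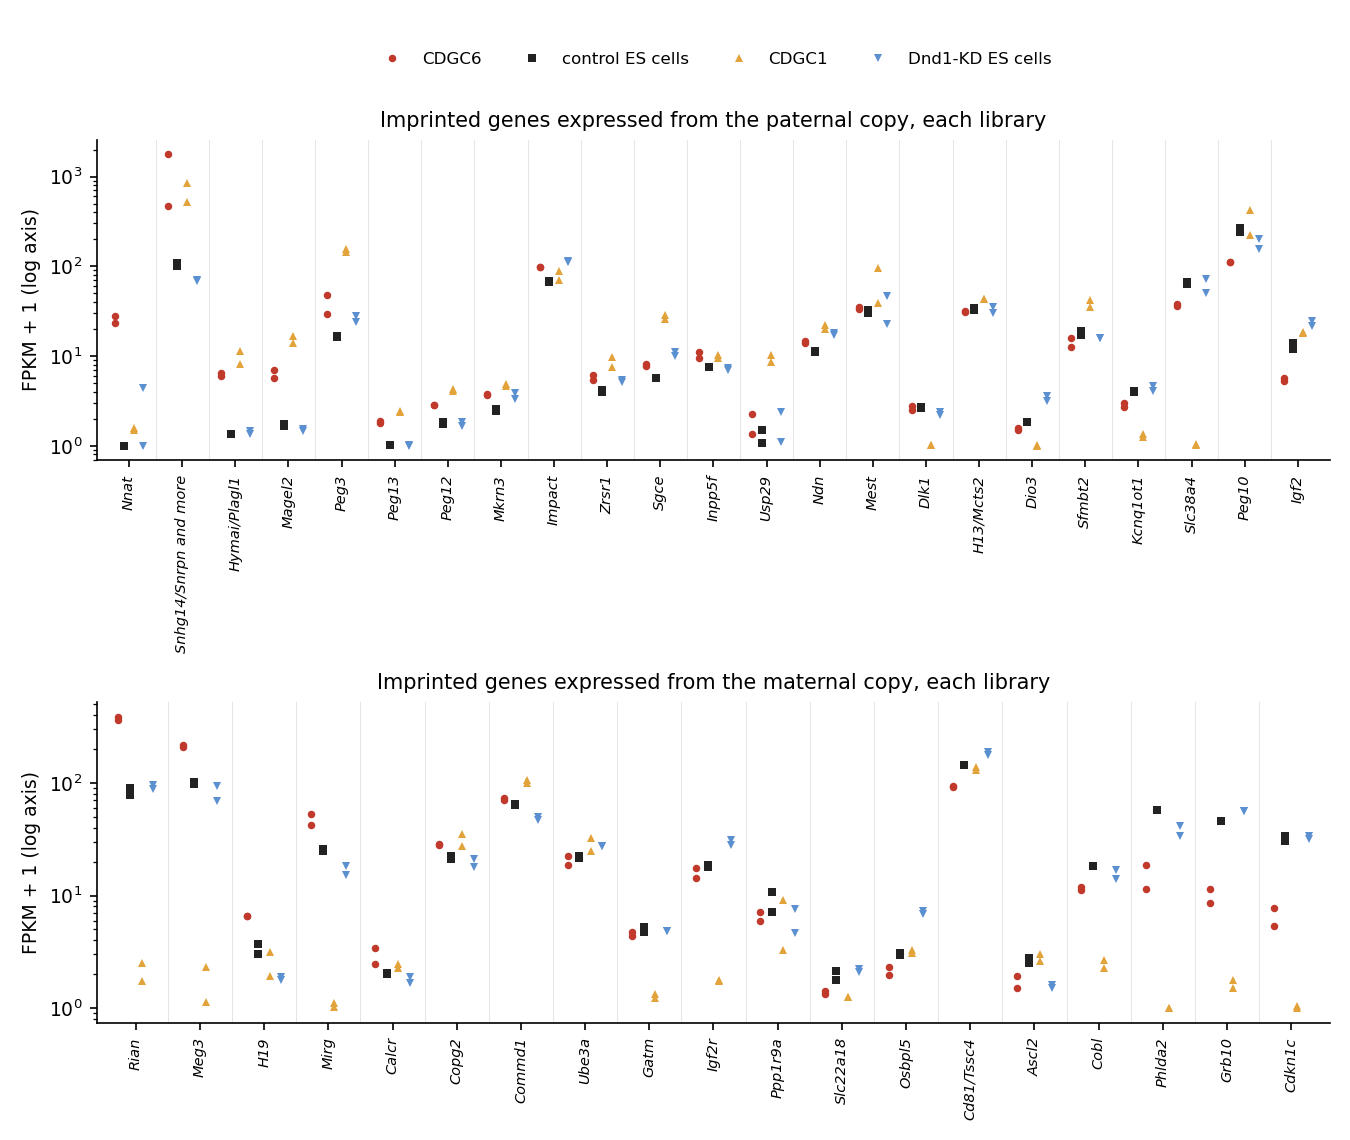
FPKM + 1 on a log axis for every tested imprinted gene, 1 point per library, paternally expressed genes above and maternally expressed genes below, ordered by log2 difference between CDGC6 and control. Snrpn, Plagl1 and Magel2 are higher in CDGC6 than in control, Rian is higher, and Cdkn1c, Grb10 and Phlda2 are lower.

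Of 20 DNA methylation genes tested, 3 rose (15% against 8.48% of all genes) and 4 fell (20.0% against 10.2%). The de novo methyltransferases rose, Dnmt3b at 262 and 255 FPKM in CDGC6 against 136 and 106 FPKM in control (log2 difference 1.09 ± 0.16, adjusted p = 0.00981) and Dnmt3a at 20.3 and 22.7 FPKM in CDGC6 against 11.8 and 11 FPKM in control (log2 difference 0.86 ± 0.10, adjusted p = 0.00494), while their catalytically inactive partner Dnmt3l fell to 135 and 176 FPKM from 282 and 264 FPKM (log2 difference −0.82 ± 0.13, adjusted p = 0.0116). Dnmt1, the maintenance enzyme, at 79.6 and 68.7 FPKM in CDGC6 against 69.5 and 71 FPKM in control and Tet1, the oxidase that starts demethylation, at 32.2 and 31.7 FPKM in CDGC6 against 39.9 and 37.1 FPKM in control were kept, both named after their values were seen. Among 11 PRC2 genes 2 fell (18.2% against 10.2% of all genes) and 10 were kept (90.9% against 83.5%). Those that fell were Aebp2 (log2 difference −0.59 ± 0.083, adjusted p = 0.0085) and Jarid2 (log2 difference −0.55 ± 0.14, adjusted p = 0.0471). The Jarid2 call was lost in 9 of 17 alternatives. Ezh2, the catalytic subunit, was at 74.2 and 83.1 FPKM in CDGC6 against 64.1 and 66.6 FPKM in control. Of 21 G1 genes tested, 16 were kept (76.2% against 83.5% of all genes), Cdk4 and Ccne1 among them. None rose (against 8.48%), and Cdkn1c and Rb1 fell (9.52%, near the 10.2% of all genes). Rb1, the pocket protein that holds cells in G1, was at 3.8 and 3.42 FPKM in CDGC6 against 7.49 and 7.46 FPKM in control (log2 difference −0.88 ± 0.089, adjusted p = 0.00288).

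The 2-cell-like genes, transcripts of the embryo at genome activation that a rare subset of ES cells expresses, were lower in nearly every case. Of 23 listed genes 14 entries were tested, and 13 fell (92.9% against 10.2% of all genes) and none rose (against 8.48%). Zscan4c was at 2.07 and 3.73 FPKM in CDGC6 against 7.71 and 6.94 FPKM in control (log2 difference −1.13 ± 0.21, adjusted p = 0.0172), and Zscan4f at 2.71 and 4.66 FPKM in CDGC6 against 10.3 and 9.08 FPKM in control (log2 difference −1.22 ± 0.20, adjusted p = 0.0131). Zscan4a/Zscan4b was at 3.64 and 6.55 FPKM in CDGC6 against 14.4 and 12.4 FPKM in control (log2 difference −1.28 ± 0.23, adjusted p = 0.017). These are near-identical copies among which reads cannot be assigned with certainty, so they do not count as independent genes, and the second CDGC6 library was the higher one in 13 of 14. CDGC1 had 0.0226 and 0.0137 FPKM and Dnd1-KD cells 20.6 and 23.8 FPKM of Zscan4c. The count was 10 and 11 without the first and the second CDGC6 library and 2 and 4 without the first and the second control library.

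Of the germ cell genes, 9 of 13 were kept within 2-fold (69.2% against 83.5% of all genes). Primordial germ cells, the source of testicular teratomas in mice, share Dppa3, Prdm1 and Tfap2c with pluripotent cells. Among the 13, 4 rose (30.8% against 8.48%) and 1 fell (7.69% against 10.2%). Prdm1 (BLIMP1), the repressor that specifies germ cells, was at 4.67 and 4.97 FPKM in CDGC6 against 1.69 and 1.66 FPKM in control (log2 difference 1.12 ± 0.097, adjusted p = 0.00186), and Ifitm1 was at 293 and 311 FPKM in CDGC6 against 149 and 138 FPKM in control (log2 difference 1.07 ± 0.21, adjusted p = 0.0225). Tfap2c was kept at 18.2 and 18.3 FPKM in CDGC6 against 21.1 and 20.6 FPKM in control, and Ddx4 (VASA), a helicase of later germ cells, was at 9.62 and 11.8 FPKM in CDGC6 against 15.5 and 15.4 FPKM in control (log2 difference −0.50 ± 0.12, adjusted p = 0.0377). Among 19 genes of the piRNA pathway and meiosis, 1 rose (5.26% against 8.48% of all genes) and 3 fell (15.8% against 10.2%). Tdrd12 rose (log2 difference 0.68 ± 0.14, adjusted p = 0.0237). Sycp3 of the meiotic chromosome axis fell the most, at 15.7 and 22.9 FPKM in CDGC6 against 43.5 and 40.1 FPKM in control (log2 difference −1.10 ± 0.16, adjusted p = 0.00982). Higher germ cell members numbered 2 and 2 without the first and the second CDGC6 library and 2 and 2 without the first and the second control library.

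Few genes of the other lineage lists rose. In the trophoblast list 7 of 13 fell (53.8% against 10.2% of all genes) and 1 rose (7.69% against 8.48%). Krt5/Krt78/Krt8, an entry that holds the partner keratin of Krt18, was at 97.9 and 81.6 FPKM in CDGC6 against 255 and 292 FPKM in control (log2 difference −1.60 ± 0.15, adjusted p = 0.00244), and Gata2 and Cdx2 were low and fell (1.49 and 1.47 FPKM in CDGC6 against 3.8 and 3.79 FPKM in control for Cdx2), while Tfap2c was kept. Of 11 endoderm genes 3 fell (27.3% against 10.2% of all genes), Col4a1, Col4a2 and Sparc. Col4a1, a basement membrane collagen, was at 6.51 and 6.17 FPKM in CDGC6 against 10.0 and 11 FPKM in control (log2 difference −0.65 ± 0.097, adjusted p = 0.00997), and the laminin Lamc1 was kept at 57 and 55.3 FPKM in CDGC6 against 56.1 and 57 FPKM in control. Of 7 tested neural genes Msi1 rose (log2 difference 0.86 ± 0.21, adjusted p = 0.0409) and Neurod1 fell (log2 difference −0.63 ± 0.11, adjusted p = 0.0141). Each is 14.3% of that list, against 8.48% of all genes higher and 10.2% lower. Only 6 of 39 Hox genes were tested, and 3 of these fell (50.0% against 10.2% of all genes), all at low levels. The lower trophoblast count was 5 and 3 without the first and the second CDGC6 library and 3 and 3 without the first and the second control library.

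Post-transcriptional regulators were nearly all kept within 2-fold. DND1 is known to recruit the CCR4-NOT deadenylase to its target RNAs. Of 20 genes of that complex and its partners, none rose (against 8.48% of all genes) and 3 fell (against 10.2%). Of the 20, 19 were kept (against 83.5% of all genes). Cnot1, the scaffold, was at 69.5 and 62.4 FPKM in CDGC6 against 67.9 and 65.8 FPKM in control, and Btg2, an adaptor that p53 also induces, was at 11.4 and 9.83 FPKM in CDGC6 against 17.3 and 17.2 FPKM in control (log2 difference −0.65 ± 0.087, adjusted p = 0.00709). Of 18 miRNA pathway genes all 18 were kept (100% against 83.5% of all genes), with 2 higher (11.1% against 8.48%) and 1 lower (5.56% against 10.2%). Prkra (log2 difference 0.58 ± 0.097, adjusted p = 0.0134) and Lin28b (log2 difference 0.39 ± 0.081, adjusted p = 0.0261) were higher. Drosha was lower (log2 difference −0.27 ± 0.070, adjusted p = 0.0459), a call lost in 8 of 17 alternatives.

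Several interferon-stimulated genes rose. Of 16 tested, 7 rose (43.8% against 8.48% of all genes) and none fell (against 10.2%). Isg15, a ubiquitin-like modifier, was at 8.94 and 7.58 FPKM in CDGC6 against 2.96 and 3.64 FPKM in control (log2 difference 1.11 ± 0.15, adjusted p = 0.00688), Irf1 at 64 and 40.8 FPKM in CDGC6 against 23.9 and 25.3 FPKM in control (log2 difference 1.03 ± 0.19, adjusted p = 0.0193) and Bst2 (tetherin) at 151 and 149 FPKM in CDGC6 against 74.6 and 76.6 FPKM in control (log2 difference 0.98 ± 0.22, adjusted p = 0.0321). CDGC1 was higher again for Isg15 (40.9 and 51.2 FPKM), with a log2 difference −2.34 ± 0.15, adjusted p = 9.42e-05 between the lines. In the MHC class I list 3 of 12 rose (25% against 8.48% of all genes). Pdia3 alone fell (8.33% of the list against 10.2%, log2 difference −0.41 ± 0.11, adjusted p = 0.0492). Psmb8/Tap2, for peptide cutting and transport, was at 30.1 and 21.2 FPKM in CDGC6 against 9.08 and 10.8 FPKM in control (log2 difference 1.27 ± 0.17, adjusted p = 0.00727). Higher interferon members numbered 3 and 3 without the first and the second CDGC6 library and 0 and 1 without the first and the second control library.

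Markers of other cells were examined. Of 23 fibroblast or feeder genes, 20 were tested, 9 rose (45% against 8.48% of all genes) and none fell (against 10.2%). The median log2 difference was 0.67 against −0.011 for all genes. Col1a2, a chain of type I collagen, was at 5.67 and 8.11 FPKM in CDGC6 against 0.381 and 0.391 FPKM in control (log2 difference 2.49 ± 0.15, adjusted p = 0.000615), Col1a1 at 9.12 and 15.2 FPKM in CDGC6 against 3.04 and 3.58 FPKM in control (log2 difference 1.57 ± 0.25, adjusted p = 0.0118) and S100a3/S100a4 at 20.7 and 36.6 FPKM in CDGC6 against 2.96 and 3.6 FPKM in control (log2 difference 2.74 ± 0.26, adjusted p = 0.0023). Ccl2, a chemokine, rose at a low level, 1.85 and 2.41 FPKM in CDGC6 against 0.105 and 0.153 FPKM in control, a call lost with any of the 4 libraries left out. Against these, Tagln (146 and 124 FPKM in CDGC6 against 215 and 266 FPKM in control) and Thbs1 (16.4 and 21.9 FPKM in CDGC6 against 37.1 and 42.1 FPKM in control) lay lower without passing. The summed FPKM of the list, of which Tagln is the largest part, was 262 and 299.6 in CDGC6, 304 and 365 in control, 499 and 312 in CDGC1 and 742 and 786 in Dnd1-KD cells. Lum, a defining fibroblast proteoglycan, is at 0 in both CDGC6 libraries and Fap is at 0.012 and 0.0116 FPKM, while Dcn was at 0.568 and 0.311 FPKM in CDGC6 against 0.0994 and 0.116 FPKM in control and Prrx1 at 0.809 and 1.31 FPKM in CDGC6 against 0.0724 and 0.0807 FPKM in control. The second CDGC6 library was the higher one in 15 of the 20, Mgp being at 0.686 and 12.2 FPKM, and whether a small number of such cells contributed was not tested. Higher members numbered 7 and 4 without the first and the second CDGC6 library and 2 and 2 without the first and the second control library.

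Several defining testis somatic and leukocyte markers were at or near 0, while other listed genes were expressed. Of 20 testis somatic genes 6 were tested, and the summed FPKM was 37.3 and 33.6 in CDGC6 and 49.2 and 50.5 in control. The Sertoli and Leydig markers Sox9, Amh, Cyp17a1, Fshr and Hsd3b1 were each at 0.206 FPKM or less in CDGC6, with Fshr and Hsd3b1 at 0. Clu and Aard fell (19.1 and 14.4 FPKM in CDGC6 against 29.5 and 31.2 FPKM in control for Clu) and Gstm6 rose (2.98 and 3.07 FPKM in CDGC6 against 0.961 and 0.841 FPKM in control). Of 18 leukocyte genes 4 were tested. Ptprc (CD45) was at 0.0303 and 0.035 FPKM in CDGC6, and Tyrobp, C1qa, C1qb, C1qc and Adgre1 are at 0 in all 4 libraries. Summed FPKM was 1267 and 1336 in CDGC6 and 1726 and 1722 in control, nearly all of it from an entry that joins Cd68 to the translation factor gene Eif4a1 and that fell. Laptm5 fell to 9.52 and 12.2 FPKM from 22.6 and 23.8 FPKM. In the EMT list 15 of 16 were kept (93.8% against 83.5% of all genes), Vim at 122 and 146 FPKM in CDGC6 against 112 and 132 FPKM in control and Fn1 at 108 and 118 FPKM in CDGC6 against 97.8 and 113 FPKM in control among them.

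**Figure D5:**
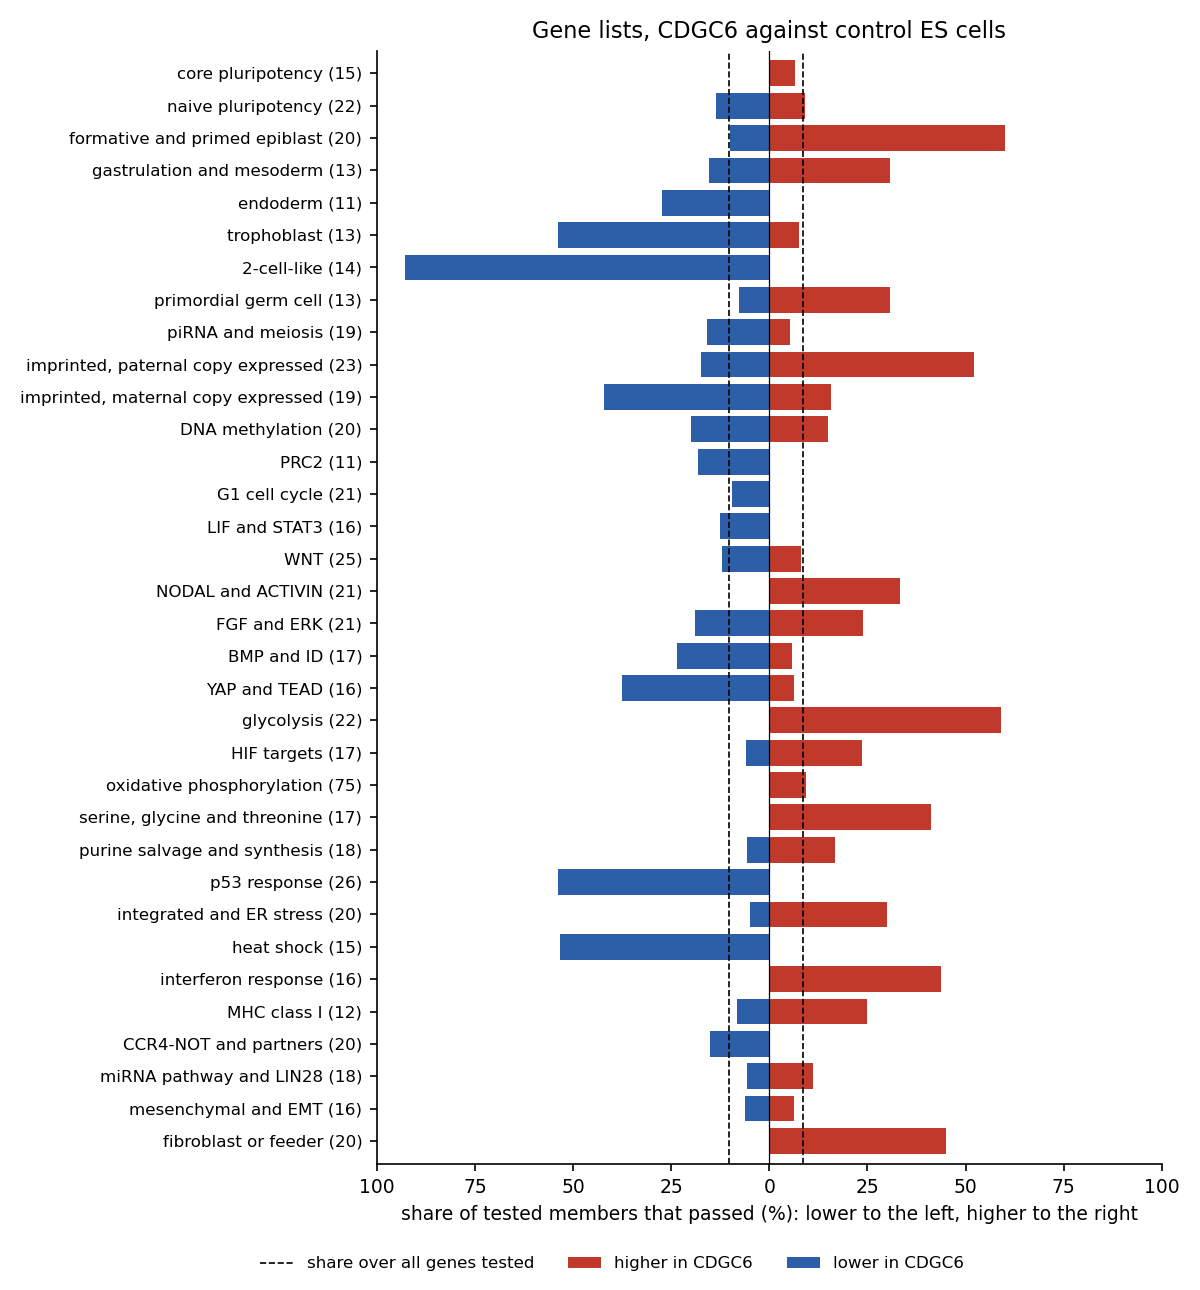
Share of tested members of each gene list (number tested in brackets) that were higher (red, to the right) or lower (blue, to the left) in CDGC6 than in control with an adjusted p under 0.05; lists with fewer than 10 tested members are left out. Dashed lines mark the shares over all genes, 8.48% higher and 10.2% lower; formative, glycolysis and paternally imprinted genes pass far to the right, 2-cell-like, p53, heat shock and trophoblast genes far to the left.

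The 15 largest rises and 15 largest falls among single-symbol genes at 5 FPKM or more hold several genes of no list. Trh, the precursor of thyrotropin-releasing hormone (chromosome 6, 92242061 to 92244650, mm10), was the most abundant of the rises at 688 and 672 FPKM in CDGC6 against 109.8 and 124 FPKM in control (log2 difference 2.54 ± 0.30, adjusted p = 0.00493), and was at 28 and 55.8 FPKM in CDGC1. Extracellular matrix genes were among them, Fbln2 (fibulin 2) at 6.2 and 11.3 FPKM in CDGC6 against 0.42 and 0.364 FPKM in control (log2 difference 2.76 ± 0.24, adjusted p = 0.00183) and Bgn (biglycan) at 9.13 and 14.3 FPKM in CDGC6 against 0.884 and 0.981 FPKM in control (log2 difference 2.69 ± 0.19, adjusted p = 0.00108). Cxcl12, the chemokine that guides germ cells, was at 7.74 and 4.33 FPKM in CDGC6 against 0.915 and 0.841 FPKM in control (log2 difference 1.86 ± 0.22, adjusted p = 0.00484), and Pkdcc, a secreted tyrosine kinase, at 19.5 and 16.3 FPKM in CDGC6 against 3.85 and 4.65 FPKM in control (log2 difference 1.85 ± 0.14, adjusted p = 0.00121). Pnma5 on the X chromosome rose to 13.5 and 11.4 FPKM from 2.8 and 2.69 FPKM and was at 0.0253 and 0.0816 FPKM in CDGC1. Rbms2, an RNA-binding protein, was at 33.4 and 56.1 FPKM in CDGC6 against 9.15 and 8.75 FPKM in control (log2 difference 2.16 ± 0.55, adjusted p = 0.0431), a call lost with any of the 4 libraries left out, with the replicate block and without a filter. Chac1, Fgf8, Zic2, Enpp2, Magel2, Rian, Col1a2 and Hprt make up the rest.

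Mid1 had the largest fall of these. Mid1 is a microtubule-binding ubiquitin ligase gene that in the mouse spans the boundary of the pseudoautosomal region (chromosome X, 169685199 to 170005736, mm10). It was at 3.28 and 5.24 FPKM in CDGC6 against 329.6 and 479 FPKM in control (log2 difference −6.27 ± 0.26, adjusted p = 8.93e-05), and at 6.53 and 6.47 FPKM in CDGC1 and 327 and 446 FPKM in Dnd1-KD cells, so the E14 libraries stood apart from those of both derived lines. Nup62cl, also on X, was at 8.87 and 12.4 FPKM in CDGC6 against 39.9 and 36.5 FPKM in control (log2 difference −1.76 ± 0.17, adjusted p = 0.00263), and Cyp2b23, a cytochrome P450 gene, at 1.18 and 1.23 FPKM in CDGC6 against 8.27 and 7.23 FPKM in control (log2 difference −1.99 ± 0.19, adjusted p = 0.00257). Id1, Id2, Cdkn1c, Grb10, Phlda2, Perp, Krt18 and Plk2 are described above. For Rps15a, Glrx2, Ssr1 and Pfdn1 the control libraries stood apart from all others, Dnd1-KD cells included, and the call for Glrx2 was lost with any of the 4 libraries left out. Rps15a, a ribosomal protein of the small subunit, was at 91.1 and 119 FPKM in CDGC6 against 1857 and 1828 FPKM in control (log2 difference −4.13 ± 0.13, adjusted p = 3.26e-05) and at 94.4 and 94.5 FPKM in Dnd1-KD cells. The tables' entries for these 4 genes mostly carry identifiers that Cufflinks made in each library separately, 29 of 32, and whether that assembly sets the high control values was not tested. Among the 15 falls these 4 were the ones in which the Dnd1-KD mean lay nearer CDGC6 than control, and among the 15 rises there were 0. Over all 2223 genes that passed there were 395, and 79 of the 395 that were at least 2-fold apart.

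The most abundant kept genes were those of translation and protein folding. The elongation factor Eef1a1 was at 6854 and 7091 FPKM in CDGC6 against 6042 and 6039 FPKM in control, Ppia (cyclophilin A) at 3316 and 3365 FPKM in CDGC6 against 3372 and 3387 FPKM in control, and the ribosomal protein gene Rps18 at 3393 and 3643 FPKM in CDGC6 against 3372 and 3440.1 FPKM in control. Rpl41, Rps2, Rplp1 and Rps20 had log2 differences from 0.18 to 0.34 and did not pass. Npm1 (nucleophosmin) was higher within 2-fold (log2 difference 0.30 ± 0.074, adjusted p = 0.0396), a call lost under quantile and under median-ratio scaling.

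Changes were spread over the genome, with the X chromosome apart. Among genes with a mean of at least 5 FPKM, the median log2 difference was between −0.065 and 0.034 on each of the 19 autosomes and 0.099 on X (264 genes). On X 17.4% of genes rose, against 4.18% to 11.6% on the autosomes, and the share that passed in either direction was 26.1% against 12.3% to 23.7%. What lies behind the X share was not tested.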

How the data were processed

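RNA-seq libraries of mouse pluripotent cells were compared, 2 of CDGC6 and 2 of control ES cells, with the other 4 libraries of the series in the model. Per the labels' protocols, total RNA was purified on RNeasy columns and libraries were made with the TruSeq RNA v2 kit, which does not mark strand. The authors deposited 1 gene table per library with FPKM values and an FPKM interval, per the file headers in the Cufflinks tracking format. TopHat2 with Bowtie, Cufflinks and Cuffdiff are named in the submitters' processing notes with the mm10 build, and versions and settings are not given in the sources used here. FPKM is scaled to library size and transcript length and holds no counts, so no count test was run, and depth was read from the intervals: named genes held 12200000 to 17300000 implied fragments in the 4 libraries, and the number sets the precision of low values. Transcripts without a gene name held 76.8% to 85.2% of summed FPKM there and were left out.

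FPKM was summed per gene symbol. Symbols joined in any library formed 1 gene (761 of 21987 genes, 657 of those tested), and spreadsheet dates were read back to 26 gene names. Small RNA genes, recognised by name, by annotated type or by a locus under 200 bases, were removed. Where an entry joined such a gene to another, only its symbol was dropped and the FPKM stayed with the other gene. Genes at 1 FPKM or more in at least 2 of 8 libraries were tested, which 2 libraries of 1 group could meet alone. limma 3.58.1 in R 4.3.3 was fitted to log2(FPKM + 1) with 1 mean per group over all 8 libraries and eBayes with trend, two-sided, with Benjamini-Hochberg adjustment and a threshold of 0.05. The script was tested on simulated data. An exact 0 can be a failed estimate: 304 tested genes hold one in the 4 libraries, among them 62 of the 395 called at least 2-fold apart.

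The 39 gene lists and the members named were chosen with earlier results of these data known. By rule the text names the label checks, the 15 largest rises and 15 largest falls (single symbol, no 0, groups apart, 5 FPKM or more, predicted genes left out), all core and naive genes, of each other list up to 4 that passed and 2 that did not, and the 10 most abundant kept genes. Names outside it, and those in counts of 5 or fewer, were chosen after their values were seen. A few genes that the rule names are not reported here, and list counts include them. Lists are described by counts, with no test, and are read against the shares of all genes that were higher, lower or kept. GENCODE vM21 (GRCm38, the mm10 assembly) gave positions, and promoters are RefSeq's (GRCm38.p6). Alternatives were other pseudocounts, filters, scalings, units and models, and each library left out. Python 3.11.15 with pandas 2.3.3 and matplotlib 3.10.9 made the tables and figures.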

Additional observations from a re-analysis of the deposited data

How the results depend on the processing

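Across 17 alternatives, counts of calls between CDGC6 and control stayed within 1.5 times of 2223 except when a library was left out, where they ran from 426 to 1447 (208 to 787 lower, 218 to 715 higher). Each lone library was then taken to vary like the other groups. Without a filter 18735 genes were tested and 16604 were kept, against 9930 of 11887. Against CDGC1, a filter of 5 FPKM left 1897 of 2869 genes higher in CDGC6, with fewer genes tested. With the replicate number as a block, 774 genes were higher and 913 lower, and 1624 of the 2223 calls were shared; the numbers share only a label, since deviations of same-numbered CDGC6 and control libraries correlated at 0.022. Of 171 named genes that passed, 71 kept the call under every alternative that tested them and none changed direction. The call was lost for 95 and 91 without the first and the second control library and for 53 and 49 without the first and the second CDGC6 library. List counts moved by over 1.5 times in at least 1 alternative other than these in 39 of 78 cases. A filter of 5 FPKM, which tests fewer genes, gave 3 in place of 9 higher fibroblast genes, 1 in place of 7 lower trophoblast genes and 8 in place of 13 lower 2-cell-like genes. Quantile and median-ratio scaling moved the median difference to −0.018 and −0.0050 and the higher share of calls to 45.5% and 48.2%, from 45.3%. With 2 libraries a group, 1114 genes neither passed nor were kept.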

Other observations

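Further values of genes on the sex chromosomes are given here. Erdr1, a gene of the pseudoautosomal region, was at 340.0 and 163 FPKM in CDGC6 against 787 and 781 FPKM in control (log2 difference −1.73 ± 0.36, adjusted p = 0.0253), and at 305 and 358 FPKM in CDGC1 and 991 and 637 FPKM in Dnd1-KD cells, so like Mid1 it was higher in both E14 groups. Kdm5d, a Y-linked histone demethylase gene, was at 0.0229 and 0.011 FPKM in CDGC6 against 0.012 and 0.0175 FPKM in control and at 0.0193 and 0.0367 FPKM in Dnd1-KD cells, while CDGC1 had 4.82 and 5.42 FPKM, so the derived lines differed in this Y-linked transcript (log2 difference −2.59 ± 0.083, adjusted p = 1.11e-05, CDGC6 minus CDGC1).

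Beside Rps15a, the control libraries alone were high for 4 further genes. Ssr1, a subunit of the translocon-associated complex, was at 15.9 and 15.9 FPKM in CDGC6 against 77.2 and 84.1 FPKM in control (log2 difference −2.27 ± 0.10, adjusted p = 0.00013) and at 20.5 and 21.6 FPKM in Dnd1-KD cells. Pfdn1, a prefoldin subunit, was at 87.2 and 96.8 FPKM in CDGC6 against 432 and 440.5 FPKM in control and at 82.8 and 87.3 FPKM in Dnd1-KD cells. Glrx2, a mitochondrial glutaredoxin, was at 5.45 and 5.79 FPKM in CDGC6 against 77.8 and 87.7 FPKM in control and at 17.5 and 9.99 FPKM in Dnd1-KD cells. Polr3k, an RNA polymerase III subunit, was at 11.6 and 11.8 FPKM in CDGC6 against 31.9 and 38.9 FPKM in control and at 9.18 and 7.75 FPKM in Dnd1-KD cells. The entry of Polr3k carries an identifier made by Cufflinks in both control libraries and in none of the other 6. For Polr3k, as for Rps15a and the other 3, whether assembly sets the high control values was not tested. Erdr1 and Polr3k were singled out after their values were seen.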
